A study of Homo sapiens with 6 samples.

Results

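The tripartite motif (TRIM) genes encode a large family of proteins built on a RING domain, 1 or more B-boxes and a coiled coil. The RING domain makes most of them E3 ubiquitin ligases, enzymes that pass ubiquitin from an E2 conjugating enzyme to a chosen protein, and the domain that follows the coiled coil usually picks that protein. Members are known as sensors and regulators of the antiviral response, as corepressors on chromatin, as binders of microtubules and as cofactors of steroid receptors. Here the members were the genes of the deposited count table whose name is TRIM, a number and at most 1 further letter. The rule found 61 of the 33451 genes listed, and 45 of them had enough counts to be tested.

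The counts came from mRNA of MDA-MB-453 cells, an established human breast cancer line, in which 25(OH)D, the main circulating form of vitamin D, was compared with its solvent. Each group had 3 libraries. Over 5 days of culture the treated cells received 25(OH)D at 100 nM, while the controls received the solvent, alcohol. All libraries came from this single line. The labels separate the replicates without saying how the cultures were kept apart, so the p-values measure the spread between these libraries. Levels are given as CPM, the count scaled to a common library size with the TMM factors, or as RPKM where genes are compared with each other, since RPKM also divides by gene length. Changes are given as the log2 fold change, 25(OH)D over control, with its standard error (SE) from the quasi-likelihood test of edgeR. Genes with a Benjamini-Hochberg adjusted p under 0.05 over the 18183 genes tested count as higher or lower, and are referred to as called.

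The libraries held between 33268860 and 40928176 counts, and no replicate was a duplicate of another, with a chi-square per gene of 4.01 to 12.1 between replicates against about 1 for sampling noise. Genes of the mitochondrial genome took 7.85% to 7.99% of the counts in control and 8.89% to 9.24% in 25(OH)D, and with them left out 14 TRIM genes were called higher and 6 lower. Of the marker genes of the line 7 are given here, all of them tested, and their summed level was 3950 to 4036 CPM in control and 4117 to 4185 CPM in 25(OH)D. Of these, 3 were higher and 1 was lower, beside 17.3% higher and 16.5% lower of all genes tested. They were led by the receptor kinase gene ERBB2 (log2 fold change 0.22) and by FOXA1 (-0.46), which encodes a pioneer factor of luminal cells. Of 9 markers of leukocytes, endothelium, fibroblasts and muscle, 6 failed the low-count filter, among them PTPRC, CD3E and PECAM1 with at most 8 counts in any library. The summed level of all 9 was 51.7 to 52.8 CPM in control and 52.6 to 58.5 CPM in 25(OH)D. All 3 tested markers were called, beside 33.8% of all genes tested. COL1A1, a collagen gene of fibroblasts, fell from 37.5 ± 1.39 to 33.1 ± 1.19 CPM, the lysosomal marker CD68 rose from 4.93 ± 0.821 to 15.9 ± 3.18 CPM (SD, n = 3 each) and the muscle gene MYH11 fell by 0.46 on the log2 scale. With the mitochondrial genes left out, the call of TRIM25 was lost and TRIM68 was called. Beyond that fit, the part of the mitochondrial share and of these markers in the results below was not tested. In bulk RNA, fewer cells of a kind and less RNA per cell cannot be told apart.

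The family as a whole made up a similar share of the mRNA in both groups, slightly larger in 25(OH)D. Its 61 genes summed to 1871 to 1913 CPM in the control libraries and 1922 to 1940 CPM in the 25(OH)D libraries, here, as for the summed markers, on the unscaled library totals. All 25(OH)D libraries lay above all controls in this sum. Among the 45 tested members, levels per length spanned from 0.0361 RPKM for TRIM67 to 35.6 RPKM for TRIM3 as means over the 6 libraries. The median of the tested members was 3.69 RPKM, 12 members were above 10 and 13 were below 1. TRIM3, a ligase with NHL repeats best known from neurons, had 35.7 ± 1.41 RPKM in control and 35.4 ± 0.315 RPKM in 25(OH)D (SD, n = 3 each). TRIM26, TRIM44, TRIM21 and TRIM16 followed with means of 23.7, 21.4, 18.5 and 17.3 RPKM. TRIM3 and TRIM44, which lacks a RING domain, together held 27.6% of the family's counts in control and 26.7% in 25(OH)D. TRIM44 had 285, 264 and 286 CPM in control and 273, 275 and 298 CPM in 25(OH)D, and TRIM16, a relative without RING domain first known as oestrogen-responsive, had 94.0, 94.4 and 95.4 CPM in control and 98.2, 103 and 99.6 CPM in 25(OH)D. The groups overlapped for TRIM44 and not for TRIM16, and neither they nor TRIM3 were called (log2 fold change 0.02, SE 0.0453 for TRIM44, 0.08, SE 0.0427 for TRIM16, and 0.03, SE 0.0403 for TRIM3). The level of TRIM16 is uncertain, because its exons share 1327 bases on the same strand with RP11-385D13.1, which had 3419 to 4040 counts.

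**Figure D1:**
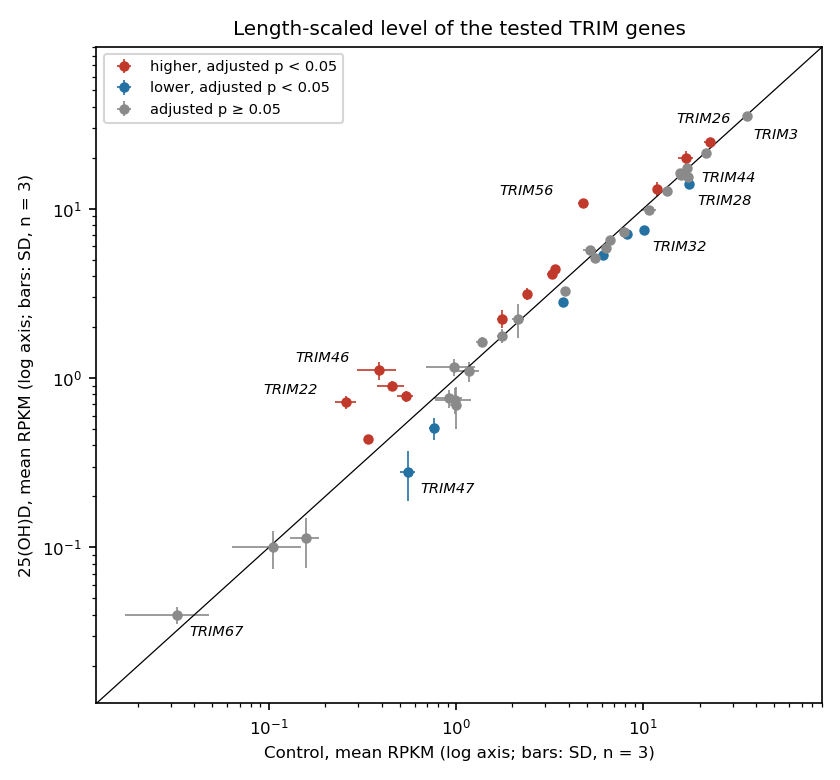
Mean RPKM of each of the 45 tested TRIM genes in control (x axis) and in 25(OH)D (y axis), both on log axes, with bars for the SD of 3 libraries and a line where both are equal. TRIM3 and TRIM44 lie on the line at the upper end, TRIM56 lies above it at 4.76 and 10.8 RPKM, and TRIM22 and TRIM46 lie above it below 1 RPKM in control.

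Single members moved in both directions. Of the 45 tested members 13 were higher and 7 were lower in 25(OH)D, which together is 44.4% of the members beside 33.8% of all genes tested. The higher members were 28.9% beside 17.3% of all genes, and the lower members 15.6% beside 16.5%. The log2 fold changes ran from -0.96 to 1.55 with a median of 0.03, beside a median of -0.01 over all genes tested, and 14 of the 20 called members changed by less than 1.5-fold. At the limits the study drew in its volcano plot, beyond 1 on the log2 scale in either direction with an unadjusted p under 0.05, TRIM46, TRIM22, TRIM56 and TRIM36 were higher and no member was lower. TRIM47 (-0.96) joined as lower without 25(OH)D replicate 3 (-1.24), without control replicate 1 (-1.02) and on library sizes alone. As reported, TRIM46, TRIM22, TRIM56 and TRIM36 were 4 of 45 members. Of all genes tested 6.65% passed these limits, 4.02% as higher and 2.63% as lower. The values of the groups did not overlap in 26 members (57.8%), 16 of them higher and 10 lower, beside 45.7% of all genes (22.8% higher and 22.9% lower). On the log2(RPKM + 1) scale with limma the split was 8 higher and 8 lower. The counts also rested on single libraries, since 8 members were higher and 3 lower without 25(OH)D replicate 2, 9 higher and 3 lower without control replicate 2, and 4 lower without control replicate 1. Still, TRIM46, TRIM22, TRIM56, TRIM36, TRIM24, TRIM5, TRIM73, TRIM32, TRIM59 and TRIM28 kept their call and direction under each of 16 other settings, which included each library left out in turn.

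**Figure D2:**
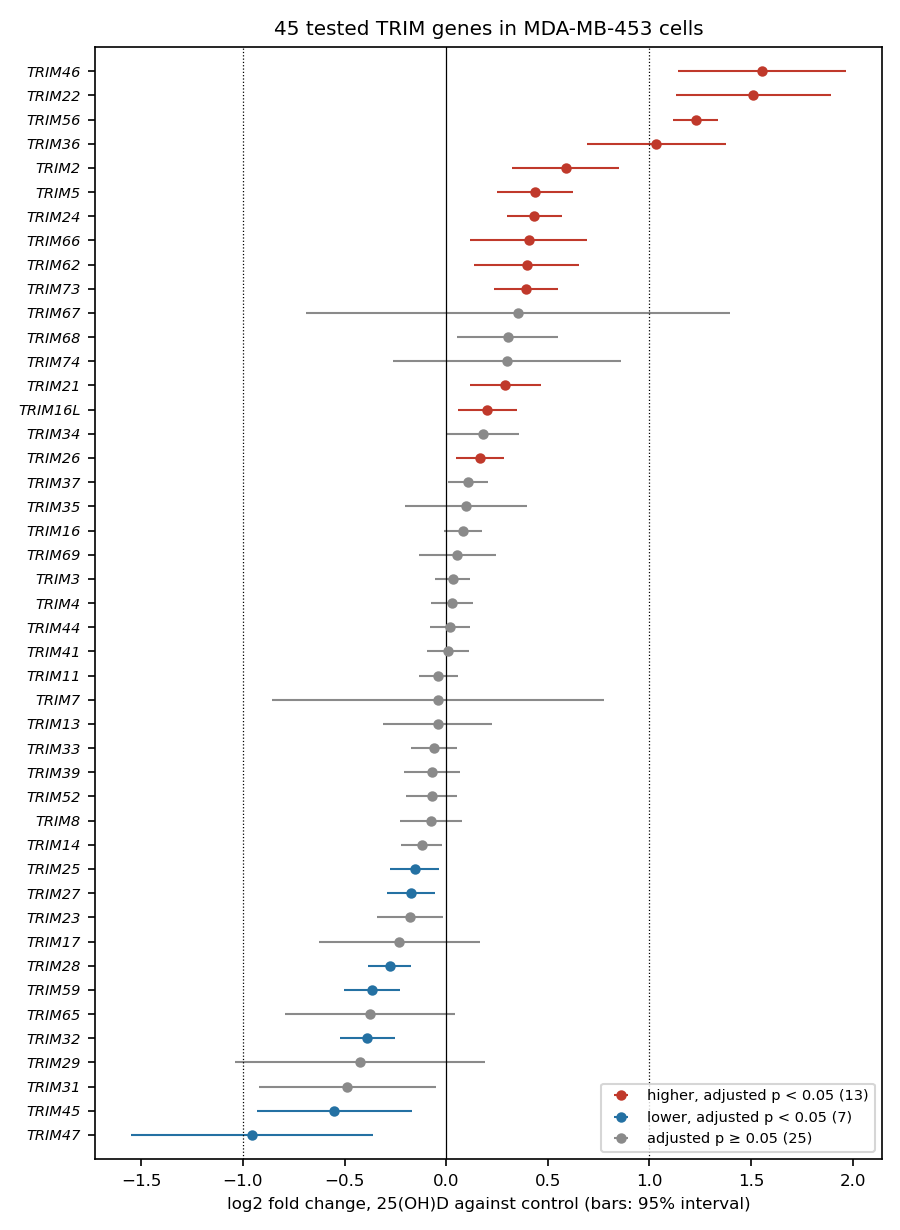
Log2 fold change of 25(OH)D against control (x axis) for each of the 45 tested TRIM genes (y axis), with bars for the 95% interval and dotted lines at -1 and 1. The 13 higher members reach from 0.17 for TRIM26 to 1.55 for TRIM46, the 7 lower members from -0.16 for TRIM25 to -0.96 for TRIM47, and the widest interval belongs to TRIM67.

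The members that act in the antiviral response included TRIM22 and TRIM56, both past the volcano limits. Of 14 such members 11 were tested, and 5 were higher (TRIM22, TRIM56, TRIM5, TRIM21 and TRIM26), 1 was lower (TRIM25) and 5 were not called, beside 17.3% higher and 16.5% lower of all genes tested. Without 25(OH)D replicate 2 the higher ones were 3. Their median log2 fold change was 0.17, beside 0.01 for the other 34 tested members, of which 8 were higher and 6 lower. TRIM56, a ligase known from the cytosolic sensing of nucleic acids (chromosome 7, 101085439 to 101097967, plus strand of GRCh38), had 56.0, 51.0 and 50.2 CPM in the control libraries and 124, 119 and 125 CPM in the 25(OH)D libraries. All 25(OH)D libraries stood above all controls by far more than the spread within either group, and the log2 fold change was 1.23 (SE 0.0517, adjusted p = 2.13e-10). This was the smallest p of the family, and the change stayed between 1.21 and 1.28 whichever library was left out. Per length TRIM56 went from 4.76 ± 0.296 to 10.8 ± 0.181 RPKM (SD, n = 3 each). TRIM22, an interferon-induced restriction factor (chromosome 11, 5689689 to 5737089, plus strand), was less abundant per length, at 0.260 ± 0.0342 RPKM in control and 0.718 ± 0.0652 RPKM in 25(OH)D (SD, n = 3 each). It had 1.56, 1.32 and 1.74 CPM in control and 4.12, 4.81 and 4.24 CPM in 25(OH)D. The groups did not overlap, and the rise was 1.51 on the log2 scale (SE 0.177, adjusted p = 1.19e-05) from counts of 50 to 65 in control and of 138 to 185 in 25(OH)D. Of the 100-base stretches of its transcripts, 8.62% also occur in the olfactory receptor gene OR56B1.

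TRIM5 restricts retroviruses by binding their capsid and is the neighbour of TRIM22, which lies within the span listed for TRIM5 (chromosome 11, 5663557 to 5938619, minus strand). It had 11.5, 10.8 and 11.6 CPM in control and 15.1, 16.6 and 14.3 CPM in 25(OH)D, without overlap, and a log2 fold change of 0.44 (SE 0.0875, adjusted p = 0.00133). TRIM34, next in the same cluster and known to act with TRIM5 on capsids, was not called (0.18, adjusted p = 0.115), and its exons share 2233 bases with the readthrough gene TRIM6-TRIM34, which had nearly the same counts. TRIM21, the cytosolic receptor for antibodies (chromosome 11, 4384897 to 4393696, minus strand), had 33.8, 33.8 and 28.7 CPM in control and 39.9, 42.5 and 35.4 CPM in 25(OH)D. The lowest 25(OH)D library lay just above the highest controls, and the log2 fold change was 0.29 (SE 0.0809, adjusted p = 0.0124), which became 0.24 (adjusted p = 0.0685) without 25(OH)D replicate 2. TRIM26, a regulator of the interferon-beta response, had 104, 91.2 and 98.2 CPM in control and 104, 109 and 116 CPM in 25(OH)D. Its lowest 25(OH)D library exceeded its highest control by under 1 CPM, the log2 fold change was 0.17 (adjusted p = 0.0319), and the call was lost without control replicate 2 (adjusted p = 0.147), 25(OH)D replicate 2 (adjusted p = 0.0641) or 25(OH)D replicate 3 (adjusted p = 0.0834).

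TRIM25, the ligase that builds ubiquitin chains on RIG-I and was first known as an oestrogen-responsive gene, went the other way. It had 40.6, 39.7 and 39.8 CPM in control and 37.3, 35.1 and 35.6 CPM in 25(OH)D. The groups did not overlap, but the change was only -0.16 on the log2 scale (SE 0.0563, adjusted p = 0.0472), and the call was lost without any 1 of the 6 libraries (adjusted p up to 0.185). TRIM14, an adaptor at MAVS, had a log2 fold change of -0.12 (adjusted p = 0.0630), TRIM31, which ubiquitinates MAVS, one of -0.49 (adjusted p = 0.0812), and TRIM65, a ligase for MDA5, one of -0.38 (adjusted p = 0.160). TRIM69 stood at 0.06 (adjusted p = 0.679). The remaining 3 antiviral members, TRIM6, TRIM15 and TRIM38, failed the low-count filter with at most 6 counts in any library.

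**Figure D3:**
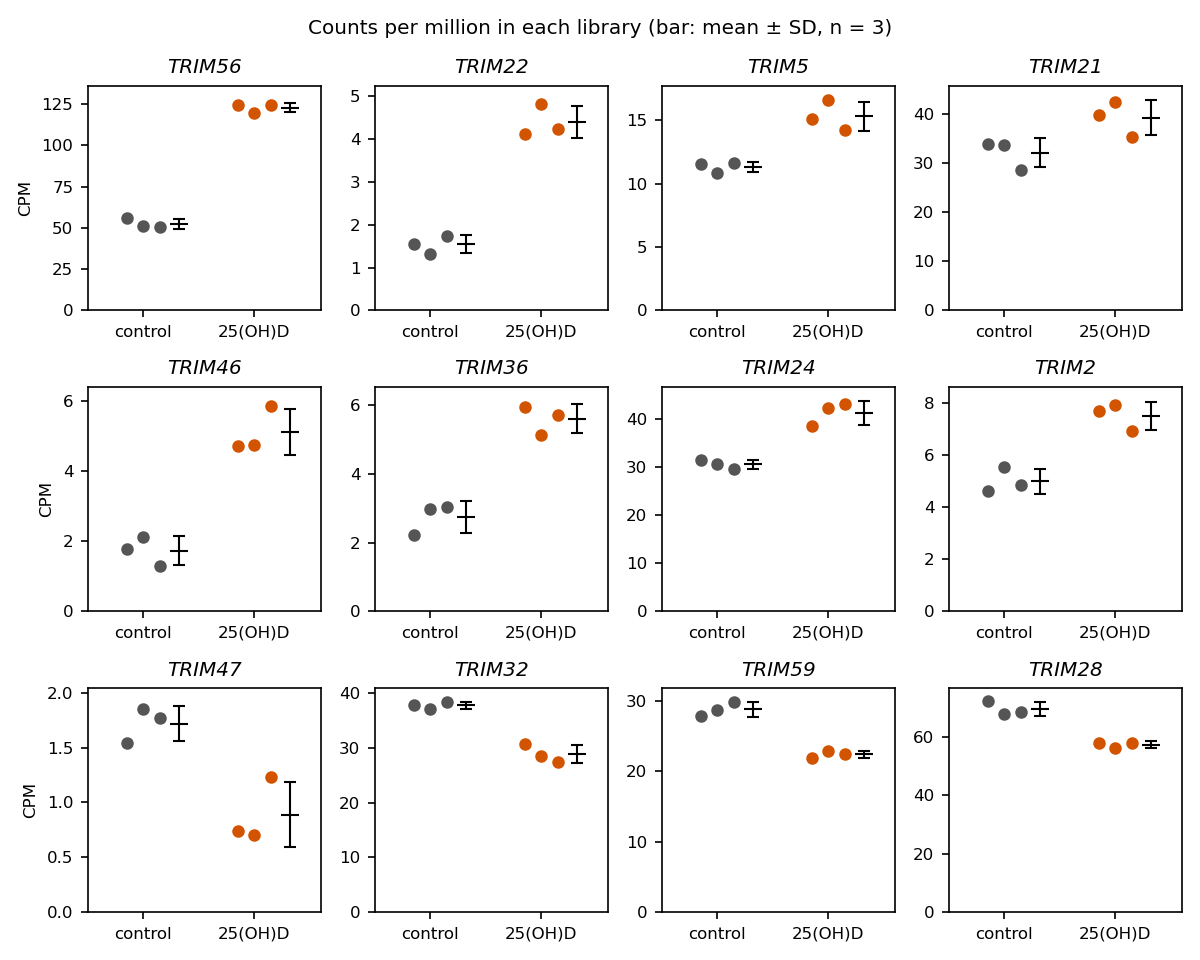
CPM (y axis, from 0) of 12 called TRIM genes in each of the 3 control and 3 25(OH)D libraries (x axis), with a bar for the mean ± SD of each group. TRIM56 goes from about 50.2 to 56.0 CPM in control to 119 to 125 CPM in 25(OH)D, and in each of the 12 panels the points of the groups do not overlap.

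Genes around these members moved as well. DDX58, which encodes RIG-I itself, had 84.2, 71.0 and 69.9 CPM in control and 146, 149 and 130 CPM in 25(OH)D, a log2 fold change of 0.91 (SE 0.0705, adjusted p = 1.68e-07). Of the 8 genes of the RIG-I pathway 5 were higher, namely DDX58, IFIH1 (0.48), ZC3HAV1 (0.34), TBK1 (0.17) and IRF3 (0.17), and 3 were higher without control replicate 2. Of all genes tested 17.3% were higher. The kinase gene IKBKE was lower (-0.24, adjusted p = 0.0139), a call lost without control replicate 2 or 3 or 25(OH)D replicate 2, and MAVS (-0.02) and RNF135 (-0.07), a second ligase of RIG-I, were not called. Of 20 interferon-induced genes 19 were tested and 18 were higher, beside 17.3% of all genes tested. The median of the list was 0.76 on the log2 scale, and IRF7 (0.12) was not called. IFI6, an interferon-induced protein of mitochondria, had the smallest p among them, with 56.2 ± 7.38 CPM in control and 142 ± 0.741 CPM in 25(OH)D (SD, n = 3 each). All of these genes were read from the same 6 libraries as the TRIM genes, and the list was written with the results of these data known.

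**Figure D4:**
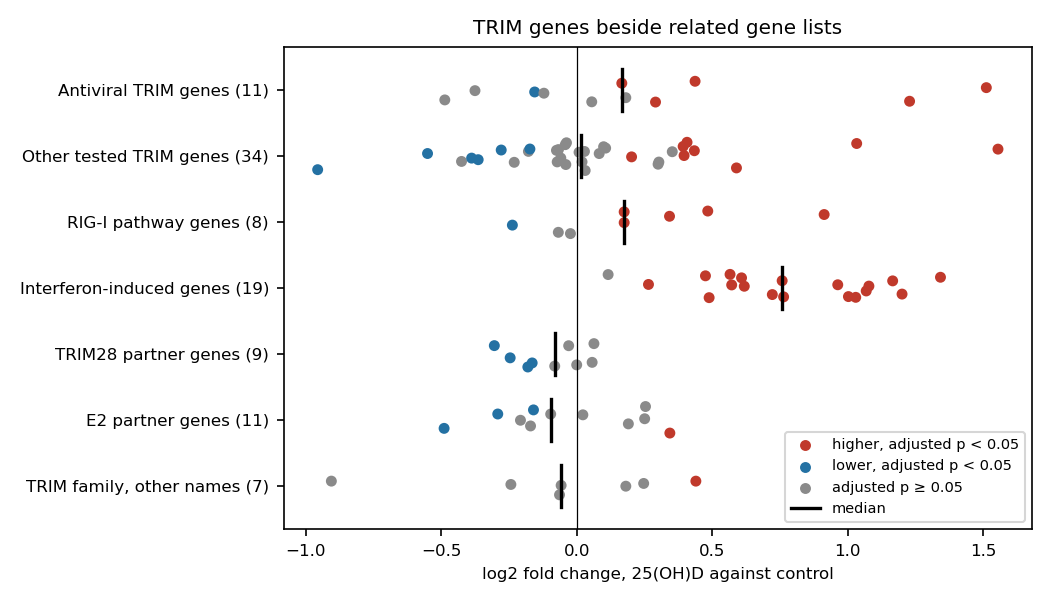
Log2 fold change of 25(OH)D against control (x axis) of each tested gene in 7 lists (y axis, number of genes in brackets), with a black mark for the median of the list and vertical scatter only to separate points. The interferon-induced genes lie to the right with a median of 0.76. The antiviral TRIM genes have a median of 0.17, with TRIM22 and TRIM56 far to the right. The other TRIM genes have a median of 0.01 and run from -0.96 to 1.55, with TRIM46 and TRIM36 also far to the right.

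The promoters of the tested members, antiviral or not, were read for the core letters of the interferon-stimulated response element. These are GAAA, any 2 bases and GAAA again, and were sought on both strands. The RefSeq table of promoter windows (GRCh38.p14, 250 bases before to 50 after a start) held 51 windows of 33 tested members, and these letters stood in 9 of them, belonging to TRIM2, TRIM5, TRIM14, TRIM16, TRIM21, TRIM26, TRIM34, TRIM44 and TRIM69. Of all 35116 windows 3.57% hold them. Of the 9 genes, TRIM2, TRIM5, TRIM21 and TRIM26 were higher and the other 5 were not called. Of all genes tested 17.3% were higher, and of the tested members 28.9%. Among members with windows but without the letters, TRIM36, TRIM46, TRIM56, TRIM62, TRIM66 and TRIM73 were higher. TRIM25, TRIM32, TRIM47 and TRIM59 were lower. Whether the letters go with a change was not tested. TRIM22 is not in the table. The windows of the 3 antiviral members below are shown because they pair TRIM56, the largest rise among the antiviral members in the table, without the letters, with 2 smaller rises with them. They are given 5′ to 3′ on the strand of the gene, with the matching letters in capitals and the start site as position 1. TRIM21 (chr11:4393653-4393952, minus strand) holds overlapping matches from positions 18 and 24, TRIM5 (chr11:5685025-5685324, minus strand) holds a match on the other strand from position -27, and TRIM56 (chr7:101085231-101085530, plus strand) holds none.
TRIM56: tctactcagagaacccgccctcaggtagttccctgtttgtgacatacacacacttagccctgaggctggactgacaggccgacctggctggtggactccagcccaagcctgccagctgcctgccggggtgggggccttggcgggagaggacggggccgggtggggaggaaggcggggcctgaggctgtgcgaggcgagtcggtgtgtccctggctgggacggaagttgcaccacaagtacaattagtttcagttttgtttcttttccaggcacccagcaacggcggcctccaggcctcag
TRIM21: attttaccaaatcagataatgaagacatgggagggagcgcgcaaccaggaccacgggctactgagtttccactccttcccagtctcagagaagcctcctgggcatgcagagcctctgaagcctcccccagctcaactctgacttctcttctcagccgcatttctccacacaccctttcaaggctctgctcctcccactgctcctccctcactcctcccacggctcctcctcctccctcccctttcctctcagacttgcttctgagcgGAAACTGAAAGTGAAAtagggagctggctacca
TRIM5: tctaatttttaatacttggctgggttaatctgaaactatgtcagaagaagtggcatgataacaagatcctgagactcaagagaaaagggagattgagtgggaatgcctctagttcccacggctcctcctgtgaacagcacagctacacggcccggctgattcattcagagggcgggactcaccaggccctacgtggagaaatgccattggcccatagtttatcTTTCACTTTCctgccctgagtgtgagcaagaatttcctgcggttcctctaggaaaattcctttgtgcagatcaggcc
The hexamers AGTTCA and AGGTCA, which form half-sites of vitamin D and related nuclear receptors, stood in 5 member windows each, beside 10.4% and 13.8% of all windows. AGTTCA was found for TRIM2, TRIM31, TRIM32, TRIM41 and TRIM69, and AGGTCA for TRIM2, TRIM31, TRIM52, TRIM65 and TRIM74. These are matches of letters only.

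Of 7 microtubule and cytoskeletal members 3 were tested. Of these 2 were higher and none was lower, beside 17.3% higher and 16.5% lower of all genes tested. TRIM46, which bundles microtubules at the start of the axon (chromosome 1, 155173787 to 155184971, plus strand), had 1.78, 2.12 and 1.30 CPM in control and 4.72, 4.73 and 5.86 CPM in 25(OH)D. Its lowest 25(OH)D library was more than 2-fold above its highest control, and its log2 fold change of 1.55 was the largest in the family (SE 0.193, adjusted p = 2.04e-05). TRIM36, a microtubule-binding ligase of dividing cells (chromosome 5, 115124762 to 115180546, minus strand), had 2.21, 2.96 and 3.04 CPM in control and 5.95, 5.12 and 5.71 CPM in 25(OH)D. The groups did not overlap, and the log2 fold change was 1.03 (SE 0.159, adjusted p = 1.53e-04), which fell under the volcano limit without control replicate 1 (0.90) or 25(OH)D replicate 1 (0.99). Both genes rested on few counts, 48 to 112 in control and 166 to 209 in 25(OH)D. TRIM67, the third gene with the COS, FN3 and SPRY domains that passed the filter, had under 0.5 CPM in every library and a 95% interval from -0.69 to 1.40, so a change of the size seen in TRIM36 was not detectable at this depth. The relatives TRIM9, TRIM54, TRIM55 and TRIM63 failed the filter. MID2, a microtubule-bound member of the family under another name, rose by 0.44 (SE 0.128, adjusted p = 0.0157) from 4.03 ± 0.208 to 5.48 ± 0.154 CPM (SD, n = 3 each). Its relative MID1 pointed the other way without a call (-0.91, SE 0.590, adjusted p = 0.269), on 2 to 22 counts per library.

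The chromatin members, which carry a PHD finger and a bromodomain, went in different directions. TRIM24, a coactivator of nuclear receptors and a ligase for p53 (chromosome 7, 138460334 to 138589993, plus strand), had 31.4, 30.7 and 29.5 CPM in control and 38.5, 42.3 and 43.0 CPM in 25(OH)D. The groups were well apart, with a log2 fold change of 0.43 (SE 0.0632, adjusted p = 9.20e-05). TRIM28, the corepressor that KRAB zinc finger proteins bring to chromatin (chromosome 19, 58544091 to 58550722, plus strand), had 72.2, 67.7 and 68.6 CPM in control and 58.0, 56.0 and 57.9 CPM in 25(OH)D. It was lower in every 25(OH)D library than in any control, by -0.28 on the log2 scale (SE 0.0499, adjusted p = 5.48e-04). TRIM33, a partner of SMAD4, did not pass the test, with a log2 fold change of -0.06 and a 95% interval from -0.17 to 0.06. TRIM66, a relative that lacks the RING domain, had 3.55, 3.70 and 3.53 CPM in control and 4.64, 4.76 and 4.91 CPM in 25(OH)D. These values did not overlap, but the adjusted p of its log2 fold change of 0.41 was 0.0303 and went up to 0.0669 when any 1 of the 6 libraries was left out.

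Of the 9 genes whose products work with TRIM28, 4 were lower and none was higher, except that 1 was higher without control replicate 3. ATF7IP, the stabilising partner of the histone methyltransferase SETDB1, had 72.2, 73.6 and 72.6 CPM in control and 57.1, 58.4 and 61.5 CPM in 25(OH)D, a log2 fold change of -0.30 (SE 0.0493, adjusted p = 2.38e-04). CBX3 (-0.25) and CBX1 (-0.18), which encode heterochromatin proteins, and CHD3 (-0.16), a remodeller of the NuRD complex, were also lower. SETDB1 itself (-0.03), CBX5 (-0.08), MPHOSPH8 (0.06), PPHLN1 (0.06) and FAM208A (0.00) were not called. The lower genes were 44.4% of this list beside 16.5% of all genes tested.

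Each of the 3 tested members with NHL repeats behaved differently. TRIM2, a ligase for neurofilament light chain (chromosome 4, 153152342 to 153339320, plus strand), had 4.61, 5.53 and 4.83 CPM in control and 7.68, 7.91 and 6.91 CPM in 25(OH)D, with no overlap and a log2 fold change of 0.59 (SE 0.122, adjusted p = 0.00175). TRIM32, a ligase of muscle whose gene is mutated in a limb-girdle muscular dystrophy (chromosome 9, 116687302 to 116701300, plus strand), had 37.7, 37.0 and 38.3 CPM in control and 30.6, 28.4 and 27.4 CPM in 25(OH)D. All its 25(OH)D libraries were below all controls, with a log2 fold change of -0.39 (SE 0.0625, adjusted p = 2.28e-04). TRIM3 was not called, with a 95% interval from -0.06 to 0.12, and TRIM71 failed the filter.

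Of 8 members tied to steroid receptors or to breast cancer, all were tested, 1 was higher (TRIM24) and 3 were lower (TRIM47, TRIM59 and TRIM25), beside 17.3% and 16.5% of all genes tested. The lower ones were 1 without control replicate 2, 25(OH)D replicate 1 or 25(OH)D replicate 2. TRIM47 (chromosome 17, 75874161 to 75878575, minus strand) had the lowest fold change of the family, with 1.54, 1.85 and 1.77 CPM in control and 0.740, 0.702 and 1.23 CPM in 25(OH)D. The third 25(OH)D library lay much closer to the controls than the other two, and the log2 fold change was -0.96 (SE 0.277, adjusted p = 0.0156). It rested on 64 to 70 counts in control and 26 to 40 in 25(OH)D, and the adjusted p became 0.0586 without control replicate 2, 0.0619 without 25(OH)D replicate 1 and 0.0683 without 25(OH)D replicate 2. Its exons share 1618 bases with RP11-552F3.9 on the opposite strand, which had a log2 fold change of -0.72 (adjusted p = 0.0953). TRIM59, a membrane-anchored member (chromosome 3, 160432445 to 160485773, minus strand), had 27.8, 28.8 and 29.9 CPM in control and 21.9, 22.8 and 22.4 CPM in 25(OH)D, a clear separation with a log2 fold change of -0.36 (SE 0.0645, adjusted p = 5.10e-04). It shares 1561 bases with the condensin gene SMC4 on the opposite strand, which had 19224 to 30864 counts beside 731 to 1157 for TRIM59 and fell by 0.35 on the log2 scale. The library kit was stranded, but the strand setting of the counting was not given in the sources used here, so reads of the pair may not be separated. TRIM59 also shares 1138 bases on its own strand with RP11-432B6.3 (-0.10, not called). TRIM37, a ligase with a MATH domain that lies in a region often amplified in breast cancer, had 85.5, 84.1 and 84.0 CPM in control and 91.5, 93.8 and 87.6 CPM in 25(OH)D. Its values did not overlap, yet the log2 fold change of 0.11 did not pass the test (adjusted p = 0.0887). TRIM68 also missed the threshold at 0.30 (adjusted p = 0.0579), as did TRIM16 at 0.08 (adjusted p = 0.160) and TRIM29 at -0.42 (adjusted p = 0.285).

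The 7 members tied to autophagy and lysosomes gave 1 call among 6 tested, beside 33.8% of all genes tested. TRIM45, a ligase with a filamin domain, had 3.48, 3.15 and 3.20 CPM in control and 2.59, 1.90 and 2.24 CPM in 25(OH)D. It was lower without overlap, by -0.55 on the log2 scale (SE 0.178, adjusted p = 0.0277), and the call was kept when 25(OH)D replicate 1 was left out but lost without any 1 of the other 5 libraries (adjusted p up to 0.119). TRIM23, which carries an ARF-like GTPase domain, had 17.2, 18.1 and 19.0 CPM in control and 16.4, 16.0 and 15.5 CPM in 25(OH)D. These values did not overlap, and the log2 fold change of -0.18 missed the threshold (adjusted p = 0.0858). TRIM13, TRIM16, TRIM17 and TRIM74 were not called, with log2 fold changes of -0.04, 0.08, -0.23 and 0.30. TRIM50 failed the filter.

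The called members on none of these role lists were TRIM27, TRIM62, TRIM73 and TRIM16L. TRIM62 is known from the breast as well, but it was not on the list of members tied to breast cancer. TRIM27, first found as a fusion partner of RET, had 65.6, 66.4 and 62.4 CPM in control and 61.0, 54.8 and 56.7 CPM in 25(OH)D. The fall of 0.17 (SE 0.0552, adjusted p = 0.0260) was lost without control replicate 1 or 2 or 25(OH)D replicate 2 or 3 (adjusted p up to 0.153). TRIM62, known as a regulator of acinar shape in the breast, had 6.03, 6.13 and 6.79 CPM in control and 9.16, 8.56 and 7.18 CPM in 25(OH)D. Its rise of 0.40 (SE 0.120, adjusted p = 0.0202) was lost without control replicate 1 or 2 or 25(OH)D replicate 1 or 2 (adjusted p up to 0.0875). TRIM73 rose by 0.39 (SE 0.0726, adjusted p = 7.15e-04), from 17.7 ± 0.882 to 23.3 ± 1.02 CPM (SD, n = 3 each). This value is uncertain, because exons of TRIM73 share bases on the same strand with NSUN5P1 and STAG3L1, which were also higher (0.39 and 0.35), and 20.1% of its 100-base stretches occur in its near copy TRIM74, of whose own stretches 78.5% occur in TRIM73. TRIM16L, of whose 100-base stretches 18.5% occur in TRIM16, was the only called member whose groups overlapped, with 48.5 to 52.0 CPM in control and 63.0, 58.6 and 51.6 CPM in 25(OH)D. Its rise of 0.20 (SE 0.0682, adjusted p = 0.0340) was lost without control replicate 2 or 3 or 25(OH)D replicate 1 or 2 (adjusted p up to 0.163).

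Of the 25 tested members without a call, 8 were measured closely, with a 95% interval that lay within 0.2 of 0 on the log2 scale. These were TRIM3, TRIM4, TRIM11, TRIM16, TRIM33, TRIM41, TRIM44 and TRIM52. For TRIM16 the value is uncertain all the same, because RP11-385D13.1, which shares exon bases with it, was higher (0.13, adjusted p = 0.0302). Of the 100-base stretches of TRIM16, 27.5% also occur in other genes. TRIM11, which had 115, 112 and 111 CPM in control and 106, 113 and 110 CPM in 25(OH)D, is an example in which the groups overlapped and the interval ran from -0.13 to 0.06. At the other end TRIM7, TRIM29, TRIM67 and TRIM74 were present at under 2 CPM in every library, and their intervals spanned more than 1 on the log2 scale. The 16 members that failed the filter had at most 14 counts in any library, and 6 of them had at most 3 counts in each. They were TRIM6, TRIM9, TRIM10, TRIM15, TRIM38, TRIM49B, TRIM50, TRIM51, TRIM54, TRIM55, TRIM63, TRIM64B, TRIM71, TRIM72, TRIM75P and TRIM80P. TRIM55 and TRIM80P had the most counts among them, 36 each over the 6 libraries.

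Neighbours on the chromosome did not all share a call. Members lay on 17 chromosomes, with 13 of them on chromosome 11, and 5 groups of members lay within 100 kb of each other. In the group of TRIM6, TRIM34, TRIM5 and TRIM22 on chromosome 11, TRIM5 and TRIM22 were higher and TRIM34 was not called. In that of TRIM31, TRIM10, TRIM15 and TRIM26 on chromosome 6, TRIM26 was higher while TRIM31 stood at -0.49 without a call. TRIM47 was lower next to TRIM65 (-0.38, not called) on chromosome 17. TRIM7, TRIM41 and TRIM52 on chromosome 5 stood at -0.04, 0.01 and -0.07, and TRIM11 and TRIM17 on chromosome 1 at -0.04 and -0.23, all without a call.

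By domain, the 21 tested members with a PRY-SPRY domain alone had 5 higher and 3 lower genes, 38.1% beside 33.8% of all genes tested, with a median log2 fold change of 0.03. The higher ones were 3 without control replicate 2 and 2 without 25(OH)D replicate 2. The lower ones were 0 without either of these libraries, and 1 without control replicate 1, 25(OH)D replicate 1 or 25(OH)D replicate 3. The list of members without a RING domain held 5 tested genes, TRIM14, TRIM16, TRIM29, TRIM44 and TRIM66. Of these 1 was higher (TRIM66, a call lost without any 1 of the libraries). None was lower as reported, but TRIM14 was called lower under 5 of the 16 alternatives. These were without control replicate 3, with upper-quartile factors, on library sizes alone, and with the filter on log2(RPKM + 1) and log2(RPKM + 0.1). TRIM16L, whose domains were not classed here, was not on this list and was higher (0.20). Of 11 genes for E2 enzymes that serve these ligases 1 was higher and 3 were lower, all by less than 0.5 on the log2 scale, which is 36.4% called beside 33.8% of all genes tested. The lower ones were 0 without 25(OH)D replicate 1, 1 without control replicate 1 or 25(OH)D replicate 2, and 1 with DESeq2, and 2 genes were higher without control replicate 1. UBE2V1 was higher by 0.34 (SE 0.0649, adjusted p = 8.42e-04), with 59.9, 62.4 and 69.8 CPM in control and 79.7, 76.7 and 87.4 CPM in 25(OH)D. UBE2V1 is the partner of UBE2N in building K63-linked chains, and UBE2N itself stood at -0.10 without a call. UBE2D3 (-0.16), UBE2E1 (-0.29) and UBE2E2 (-0.49) were lower. Of the 7 tested family genes under other names, MID2 was the only one called, and PML, which encodes the scaffold of nuclear bodies and is itself interferon-induced, stood at 0.25 (adjusted p = 0.271). RNF207 had 8.49 ± 1.03 CPM in control and 7.16 ± 0.917 CPM in 25(OH)D (SD, n = 3 each), and its log2 fold change of -0.24 did not pass the test (adjusted p = 0.164).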

How the data were processed

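RNA of MDA-MB-453 cells, 3 libraries per group, was sequenced by the authors with a stranded mRNA kit. The deposited counts are raw, whole numbers of reads per gene, and the deposited RPKM values equal the count divided by gene length and library total (largest relative difference 5.14e-15). The submitters' processing notes name Trimmomatic 0.36, featureCounts, Subread 1.5.1, edgeR 3.12.1 and GRCh38. The aligner, annotation release and strand setting were not given in the sources used here. Groups and replicates came from the labels, and every column of values was used.

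The test used edgeR 4.0.16 in R 4.3.3 (TMM, filterByExpr with a minimum count of 10, quasi-likelihood test, Benjamini-Hochberg adjustment over 18183 genes, no covariates). The SE is the fold change over the root of its F statistic, and intervals are 95%. DESeq2 1.42.0 and limma 3.58.1 on log2(RPKM + 1) or log2(RPKM + 0.1) were alternatives, with other size factors, no filter, a replicate block, mitochondrial genes left out (chosen after seeing the data) and each library left out in turn. The test was tried on simulated counts of 17888 genes. It recovered 77 of 99 changes of 1 on the log2 scale and 53 of 99 changes of 0.5, and made 20 false calls. Shared exon bases were computed from the exon positions in the table, and 57 of the 61 members had the start and end of GENCODE 29, whose transcripts gave the shared 100-base stretches.

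The members and lists were chosen with earlier results of these data known, and no set was tested. The rule for genes to name took the 8 called members that rose most, all 7 that fell, the 5 with the highest mean RPKM, those past the volcano limits, and the gene with the smallest p in each list and, for other genes, in each direction. Further genes were named to account for every member or call of a list, after their values were seen. Of the marker genes, 2 are not reported here.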

Additional observations from a re-analysis of the deposited data

How the results depend on the processing

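Of the 20 called members, 10 kept their call under all 16 alternatives, 10 lost it under at least 1, and no called member changed direction. A further 5 (TRIM14, TRIM23, TRIM31, TRIM37 and TRIM68) were called under at least 1 alternative. Members called higher were 8 on log2(RPKM + 1), 8 on log2(RPKM + 0.1) and 7 on log2(RPKM + 1) without a filter, in place of 13, and the cause was not tested. In the unfiltered setting 4 members were lower in place of 7, and 1998 of all genes were higher in place of 3138. Members past the volcano limits were 1 on log2(RPKM + 1), with the filter and without it, in place of 4. When single libraries were omitted, 8 to 12 members were higher (8 without 25(OH)D replicate 2), 3 to 6 were lower (3 without 25(OH)D replicate 2 or control replicate 2, 4 without control replicate 1) and 3 to 5 passed the volcano limits. The median log2 fold change of the members lay near 0 under every setting: it was 0.03 as reported, 0.020 to 0.061 with a library left out, -0.013 with upper-quartile factors, -0.016 with library sizes alone, -0.012 on log2(RPKM + 1) with or without the filter and -0.015 on log2(RPKM + 0.1), and the cause of the change of sign was not tested. Without the 8 members that share exon bases on the same strand, 11 were higher and 6 lower. Replicate numbers gave no sign of pairing (correlations of same-numbered deviations from the group means -0.0721, -0.012 and -0.046). With 3 libraries per group these correlations cannot show that the cultures were not paired. With the replicate block, 12 members were higher, 6 were lower and 4 passed the volcano limits, with 3057 of all genes higher and 2896 lower. Depth limits members under about 2 CPM, whose intervals exceed 1 on the log2 scale.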
